A study of Mus musculus with 4 samples.

Results

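The 8 genes described here belong to Nodal, Lefty and Activin signalling. They are the ligand gene Nodal, the co-receptor gene Tdgf1, the receptor gene Acvr2b, the secreted inhibitor genes Lefty1 and Lefty2, and the intracellular inhibitor genes Pmepa1, Smad7 and Skil. They were taken by symbol from a table of 14382 genes, and each of the 8 symbols matched 1 row. All 8 were among the 14376 genes that could be tested.

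Polyadenylated RNA was sequenced from mouse embryonic stem cells (ESCs) of genotype Arid1af/f:CreERT2. Arid1a, which encodes a BAF chromatin remodeller subunit, is floxed in them, and CreERT2 is a Cre recombinase that 4-hydroxytamoxifen (4-OHT) switches on. The 2 control libraries came from cells given ethanol, and 2 libraries came from cells given 1 µM 4-OHT, in both cases for 24 hours. The cells were then passaged, and RNA was taken 72 hours after treatment. The comparison asked which transcripts differ once Arid1a has been deleted. Control cells carried the same floxed alleles and the same CreERT2, and cells without CreERT2 are not among the groups. An effect of 4-OHT or of active Cre and an effect of the deletion therefore cannot be told apart. The sources used here do not give the promoter that drives CreERT2 or the number of clones.

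Nodal is a secreted ligand of the TGF-β family. It binds type I and type II activin receptors with the help of the co-receptor Cripto, encoded by Tdgf1, and signals through SMAD2 and SMAD3, which act on DNA with SMAD4 and partners such as FOXH1. Lefty proteins bind the co-receptor and the ligand and block signalling, and because Nodal signalling raises transcription of Nodal, Lefty1, Lefty2, Smad7, Skil and Pmepa1, the pathway holds a positive loop and several negative ones. In mouse ESCs the pathway is active, and in the embryo it directs mesendoderm formation and left-right asymmetry.

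Between 6050742 and 6849890 reads per library were assigned to tested genes, and 1 read was worth between 0.142 and 0.159 CPM (read counts scaled to library size). Within a group the libraries are named A and B, letters that carry no replicate number. No label says that they were separate cultures, so p-values rest on the spread between these libraries alone, and that spread may be technical. The tests used below estimate the spread of each gene partly from other genes. Arid1a stood at 517 and 502 CPM in ethanol and at 241 and 213 CPM with 4-OHT, so both treated libraries were below both controls. The change in the mean was -55.4%, so Arid1a reads remained with 4-OHT. How complete the deletion was was not tested. All 10 listed ESC markers were measured. Their summed level was 4116 and 3987 CPM in ethanol and 4100 and 4294 CPM with 4-OHT, with Nanog and Tdgf1 higher and Sox2, Esrrb and Tfcp2l1 lower among them. Without Pou5f1, the highest of them, the sum was 2619 and 2602 CPM in ethanol and 2737 and 2780 CPM with 4-OHT. Tdgf1, also among the 8 genes, is part of both sums. The ESCs grew on irradiated fibroblast feeders, and 12 of 18 listed fibroblast markers were measured (Lum, Dcn, Postn, Twist2, Prrx1 and Fap were not analysed here). Those 12 summed to 876 and 855 CPM in ethanol and to 743 and 709 CPM with 4-OHT. Without the smooth muscle gene Tagln, which made up most of the sum, they stood at 227 and 230.1 CPM against 257 and 244 CPM. By limma 2 of the 12 were higher with 4-OHT, Col1a2 (mean 20.8 CPM in ethanol and 45.0 CPM with 4-OHT, log2 fold change 1.07, adjusted p = 0.0003) and Thy1 (0.82, adjusted p = 0.0398). Another 2 were lower, Col5a2 (-0.56, adjusted p = 0.0153) and Tagln (-0.42, adjusted p = 0.000987), and 8 did not pass. None of the 12 was at 0 in all libraries. Of 8 primitive endoderm markers, 7 were measured and 0 passed the test (summed level 34.3 and 35.7 CPM against 42.1 and 40.2 CPM). Without Dab2, the highest of them, the sum was 16.1 and 15.3 CPM in ethanol and higher, 23.9 and 23.7 CPM, with 4-OHT. Of 8 mesendoderm markers, 4 were measured, and 1, T (brachyury), fell (summed level 66.2 and 66.8 CPM against 48.6 and 49.7 CPM, and 21.7 and 19.8 CPM against 21.5 and 22.1 CPM without T). Whether these cell types have a part in the results below was not tested. In bulk RNA, fewer cells of a type and less RNA per cell cannot be told apart.

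With 4-OHT the ligand gene rose, its co-receptor gene rose by less, and the 5 inhibitor genes did not move as a block. Of the 8 genes, 2 were higher (Nodal and Tdgf1), 2 were lower (Lefty1 and Pmepa1) and 4 did not pass the test (Acvr2b, Lefty2, Smad7 and Skil). The test was limma-trend on log2(CPM + 1) with a Benjamini-Hochberg adjusted p under 0.05. Over all genes tested it called 9.46% in either direction, 5.24% higher and 4.22% lower. Among the 6119 genes at or above the mean level of Pmepa1, the lowest of the 8, it called 11.4% (5.49% higher and 5.87% lower). The same 2 genes were higher and the same 2 lower by edgeR's quasi-likelihood test, which called 15.8% of genes (8.12% higher, 7.63% lower), and by DESeq2, which called 5.07% (2.77% higher, 2.3% lower). The median log2 fold change of the 8 genes was 0.08 and the median of its absolute size was 0.22, beside -0.0016 and 0.14 over all genes tested. In 7 of the 8 genes the libraries of the groups did not overlap, Skil being the exception, and the same held for 52.1% of all genes tested and 53.2% of those at or above the level of Pmepa1. The 8 genes were chosen with earlier results of these data known, so these shares and medians are a background and no test of the set.

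**Figure D1:**
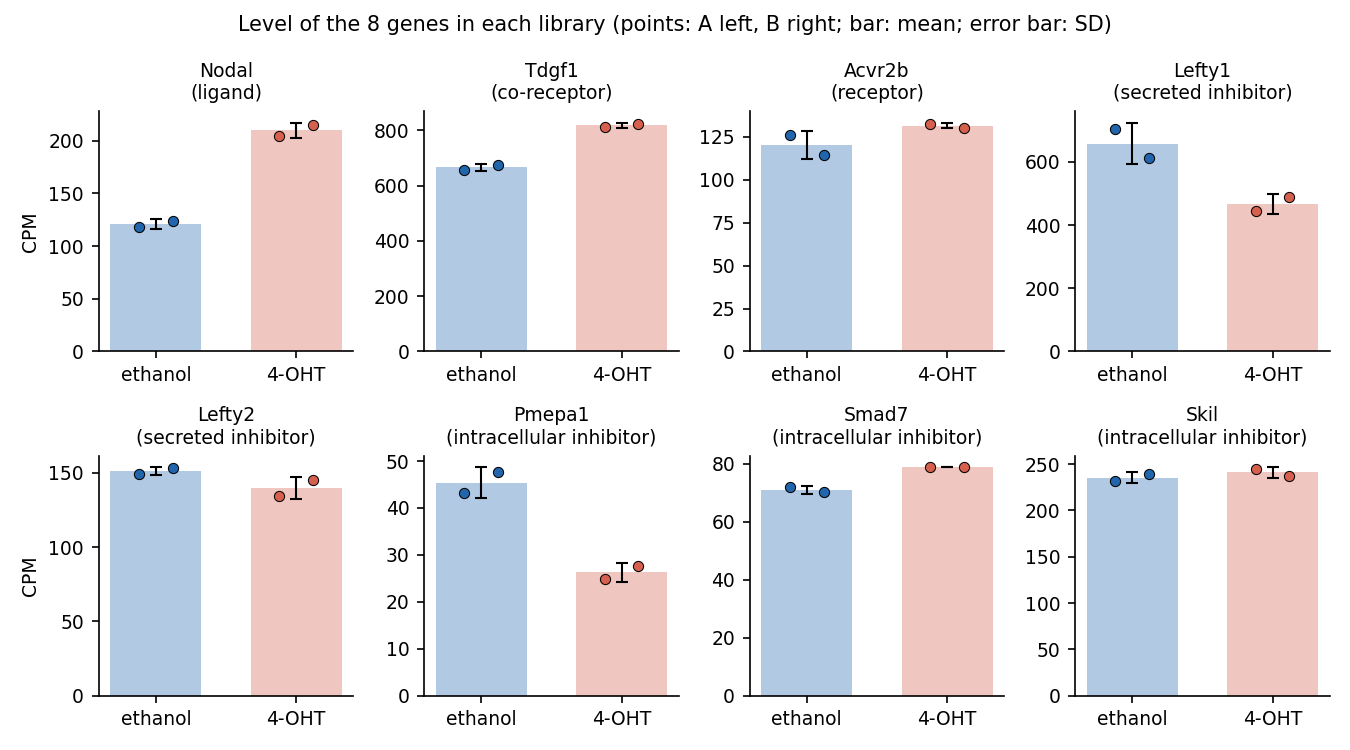
Level of each of the 8 genes in CPM (vertical axis, from 0, a scale of its own for each gene) in the ethanol and 4-OHT libraries. Points are libraries, bars are group means and error bars are SD (n = 2). Both treated libraries are above both controls for Nodal (205 and 215 against 118 and 124 CPM) and Tdgf1, both are below them for Lefty1 and Pmepa1, and the points of the groups overlap for Skil.

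Nodal was the gene with the largest rise of the 8. The gene lies on chromosome 10, 61417972 to 61425338, plus strand (mm10, Gencode M21). It stood at 118 and 124 CPM in ethanol and at 205 and 215 CPM with 4-OHT, which rest on 759, 795, 1441 and 1351 reads. Both treated libraries were far above both controls, and libraries of a group lay close together. The group means were 120.8 ± 4.51 CPM in ethanol and 209.8 ± 7.01 CPM with 4-OHT (SD, n = 2), a rise of 73.6%. The log2 fold change on the log2(CPM + 1) scale, which understates the change of low genes, was 0.79 (SE 0.061, 95% interval 0.66 to 0.93, adjusted p = 5.61e-05 by limma). That is percentile 97.7 of the fold changes of all genes tested. The limma call was lost without 4-OHT library A (log2 fold change 0.82, adjusted p = 0.134) and without library B (0.76, 0.136), where no gene was called, and kept by edgeR in both cases. Over all 15 alternatives the adjusted p for Nodal ran from 6.22e-22 to 0.136.

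Tdgf1 encodes Cripto, the membrane-anchored co-receptor that Nodal needs, and is itself an ESC marker. It lies on chromosome 9, 110939603 to 110946158, minus strand. Its level was 657 and 676 CPM in ethanol and 812 and 825 CPM with 4-OHT. The treated libraries were again both above the controls, by a smaller margin relative to the level. Means of 666 ± 13.6 and 818 ± 8.79 CPM (SD, n = 2) gave a rise of 22.8% and a log2 fold change of 0.30 (SE 0.052, 95% interval 0.18 to 0.41, adjusted p = 0.00558 by limma). The limma call was lost without ethanol library A (0.28, adjusted p = 0.0829), 4-OHT library A (0.31, 0.161) or 4-OHT library B (0.28, 0.168), and the adjusted p for Tdgf1 ran from 1.17e-05 to 0.168 over 15 alternatives. Of the 2665 windows of 50 bases along the Tdgf1 transcripts, 8.86% also occur in the pseudogene Tdgf1-ps1, so some of its reads could be split by the counting.

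Nodal and Tdgf1 were the members that rose, and the 250 bases before their start sites show what sequence lies there. Windows were taken from RefSeq (GRCm38.p6) for Nodal, Tdgf1 and Acvr2b, and not for Lefty1, Lefty2, Pmepa1, Smad7 and Skil. SMAD proteins are known to bind the short motif AGAC, which reads GTCT on the other strand, and capitals mark it below, written 5′ to 3′ on the strand of the gene. The Nodal window is chr10:61417722-61417971, plus strand, and the Tdgf1 window is chr9:110946159-110946408, minus strand.
Nodal: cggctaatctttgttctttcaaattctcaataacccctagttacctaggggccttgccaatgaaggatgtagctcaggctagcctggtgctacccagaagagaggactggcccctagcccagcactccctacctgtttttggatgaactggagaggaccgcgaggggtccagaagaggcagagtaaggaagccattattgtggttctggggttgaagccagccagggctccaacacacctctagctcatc
Tdgf1: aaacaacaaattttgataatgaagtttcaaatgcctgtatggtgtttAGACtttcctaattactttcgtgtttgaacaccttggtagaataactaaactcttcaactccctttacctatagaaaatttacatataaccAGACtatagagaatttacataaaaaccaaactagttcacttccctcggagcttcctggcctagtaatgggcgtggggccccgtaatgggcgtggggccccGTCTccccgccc
The Nodal window holds 0 matches on either strand and the Tdgf1 window holds 3, while the Acvr2b window, not printed, holds 2. Of all 32817 windows of that length, 82.9% hold at least 1 match and the median is 2, so a match is common. None of the 3 windows holds the palindrome GTCTAGAC, found in 0.2% of all windows, or the forkhead motif TGTGGATT (AATCCACA on the other strand), found in 0.7%. A missing match says only that these letters are not in the window.

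Acvr2b encodes a type II receptor that Nodal and activins share. It lies on chromosome 9, 119402118 to 119434995, plus strand, and an antisense gene, Gm47320, overlaps it without sharing exon bases. The level was 126 and 115 CPM in ethanol and 133 and 130.5 CPM with 4-OHT. The lowest treated library was above the highest control by less than the spread between the controls. The log2 fold change was 0.13 (SE 0.067, 95% interval -0.02 to 0.28, adjusted p = 0.271 by limma), and the test was not passed.

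The secreted inhibitors Lefty1 and Lefty2 lie side by side on chromosome 1, both on the plus strand, with 35.9 kb between them. Lefty1 spans 180935022 to 180938400 and Lefty2 spans 180893108 to 180899103. How well reads tell them apart depends on their sequences, which differ most at the start of the coding region. Over 1104 coding bases 90 differ (91.8% identical), with 77.6% identity in the first coding exon, 94.3% in the second, 98.0% in the third and 95.8% in the fourth. The longest identical run is 140 bases. Of the 50-base windows along each gene's transcripts, 17.9% of Lefty1 and 11.99% of Lefty2 also occur in the transcripts of another gene, nearly all of them in the other Lefty gene. Reads from those stretches could be assigned to either gene or dropped, and the sources used here do not give the read length.

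Lefty1 fell with 4-OHT. Its level was 704 and 612 CPM in ethanol and 445 and 489 CPM with 4-OHT, from 4544, 3923, 3129 and 3077 reads. Both treated libraries were below both controls, and the controls lay further apart than the treated libraries. The means were 658 ± 65.3 and 467 ± 31.3 CPM (SD, n = 2), a change of -29.1%. The log2 fold change was -0.49 (SE 0.074, 95% interval -0.66 to -0.33, adjusted p = 0.00255 by limma), at percentile 4.2 of all genes. The limma call was lost without 4-OHT library A (-0.42, adjusted p = 0.209) or library B (-0.56, 0.172), and the adjusted p for Lefty1 ran from 4.71e-17 to 0.209 over 15 alternatives.

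Lefty2 did not pass the test. It stood at 149 and 153 CPM in ethanol and at 135 and 145 CPM with 4-OHT, so the treated libraries were lower, the nearest by less than the spread between them. The log2 fold change was -0.11 (SE 0.063, 95% interval -0.25 to 0.03, adjusted p = 0.319 by limma). As reads can pass between the Lefty genes, their sum was also taken. Lefty1 plus Lefty2 was 853 and 765 CPM in ethanol and 579 and 634 CPM with 4-OHT, a change of -25.0% in the mean. The ratio of Lefty1 to Lefty2 was 4.72 and 4.00 in ethanol and 3.30 and 3.37 with 4-OHT, a difference of -0.38 on the log2 scale (exact permutation test, two-sided p = 0.333, the smallest that 2 against 2 allows). That the Lefty genes changed by different amounts is therefore not shown by a test.

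Pmepa1 had the largest fall of the 8. It encodes a membrane protein that binds SMAD2 and SMAD3 and keeps them from the receptor, and is itself induced by TGF-β family signals. It lies on chromosome 2, 173224458 to 173276533, minus strand. Its level was 43.1 and 47.7 CPM in ethanol and 24.9 and 27.7 CPM with 4-OHT, from 278, 306, 175 and 174 reads. Both treated libraries were well below both controls. The means were 45.4 ± 3.29 and 26.3 ± 1.97 CPM (SD, n = 2), a change of -42.2%, or 1.73-fold lower. The log2 fold change was -0.77 (SE 0.102, 95% interval -1.0 to -0.54, adjusted p = 0.00128 by limma), at percentile 1.0 of all genes. The limma call was lost without 4-OHT library A (-0.69, adjusted p = 0.156) or library B (-0.84, 0.139), and the adjusted p for Pmepa1 ran from 1.03e-08 to 0.156 over 15 alternatives.

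The other intracellular inhibitors did not pass the test. Smad7 encodes the inhibitory SMAD that blocks activated type I receptors, and lies on chromosome 18, 75367529 to 75395935, plus strand. It stood at 71.9 and 70.0 CPM in ethanol and at 78.7 CPM in each of the treated libraries. The libraries of the groups did not overlap, and the log2 fold change was 0.15 (SE 0.068, 95% interval -0.01 to 0.30, adjusted p = 0.225 by limma). Skil encodes SnoN, a repressor that binds SMAD complexes on DNA, and lies on chromosome 3, 31095058 to 31122577, plus strand. It stood at 231 and 239 CPM in ethanol and at 245 and 237 CPM with 4-OHT, where the groups overlapped. Its log2 fold change was 0.03 (SE 0.056, 95% interval -0.09 to 0.16, adjusted p = 0.783 by limma). At the upper end of these intervals Smad7 would be 1.23-fold and Skil 1.12-fold higher.

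**Figure D2:**
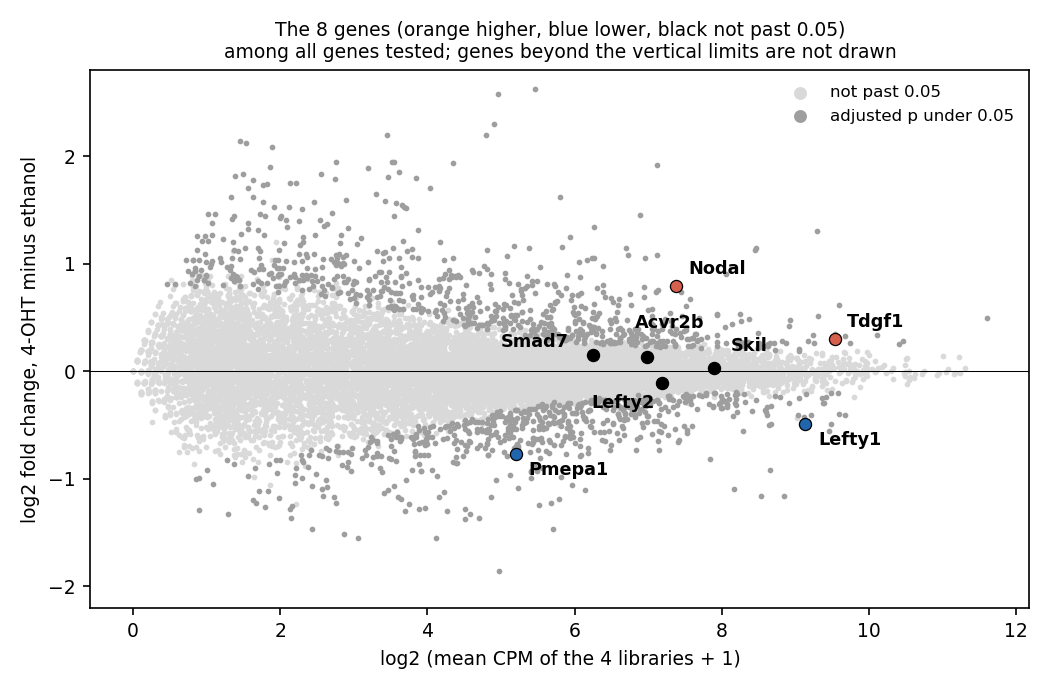
Log2 fold change, 4-OHT minus ethanol (vertical axis), against log2 of the mean CPM of the 4 libraries + 1 (horizontal axis) for the genes tested, each point 1 gene; dark grey points had a limma adjusted p under 0.05, and 2 genes lie beyond the vertical limits. Nodal (0.79, percentile 97.7 of all genes tested) and Tdgf1 (0.30, percentile 86.6) were called higher. Lefty1 (-0.49, percentile 4.2) and Pmepa1 (-0.77, percentile 1.0) were called lower, and Acvr2b, Lefty2, Smad7 and Skil were not called. Genes not called can lie further from 0 than called ones, as the low gene Ldlrad4 (0.57) does beside Tdgf1.

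The level of Nodal relative to its inhibitors was set out within each library, where the scaling of the library cancels. The absolute ratios depend on the lengths of both genes, and their change between groups does not. Nodal over Lefty1 was 0.167 and 0.203 in ethanol and 0.461 and 0.439 with 4-OHT, a 2.44-fold difference. Nodal over Lefty2 was 0.789 and 0.810 in ethanol and 1.52 and 1.48 with 4-OHT, a 1.88-fold difference. Both treated libraries were above both controls in each case. Nodal over the Lefty1 and Lefty2 sum was 0.138 and 0.162 against 0.354 and 0.339, a 2.31-fold difference. That sum does not depend on how reads are split between the Lefty genes, but any reads dropped from their shared stretches are missing from it. Nodal over Pmepa1 was 2.73 and 2.60 in ethanol and 8.23 and 7.76 with 4-OHT, a 3.0-fold difference and the largest of the 8 ratios compared. Smaller differences were found for Nodal over Smad7 (1.57-fold), over Skil (1.70-fold), over Acvr2b (1.58-fold) and over Tdgf1 (1.41-fold). Tdgf1 rose too, and the ratio to it moved least. In all 8 ratios the treated libraries lay above the controls, which the rise of Nodal enters each time, so the 8 are not separate results. The exact permutation test gave two-sided p = 0.333 for each (0.333 after adjustment over the 8 ratios), which is the smallest that 2 against 2 allows, so no ratio can pass 0.05.

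**Figure D3:**
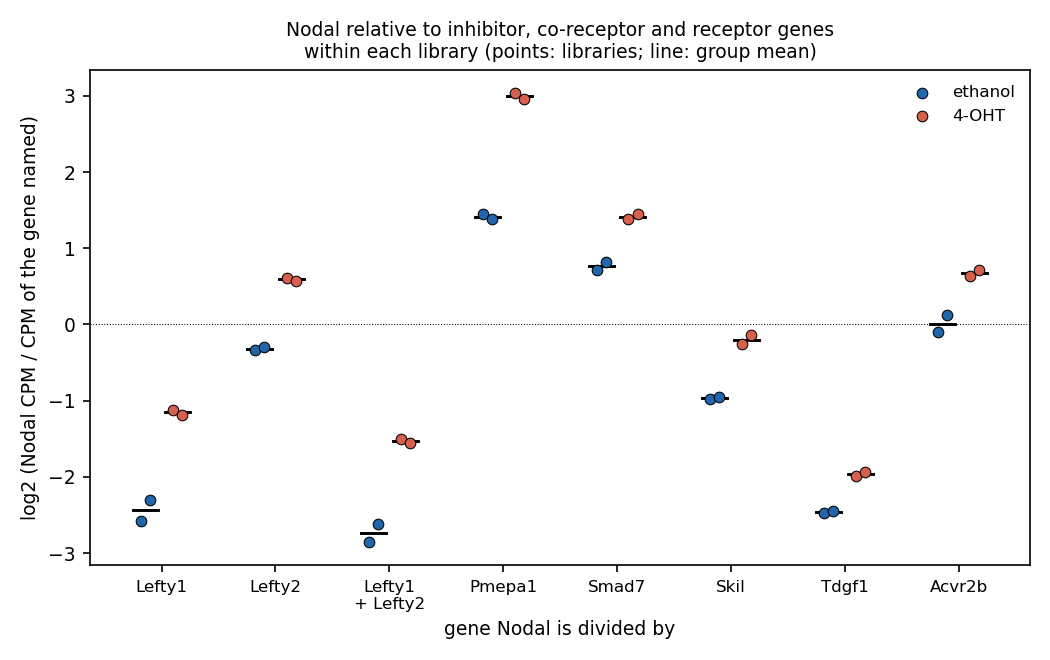
Log2 of Nodal CPM over the CPM of another gene (vertical axis) within each library, for the 8 denominators named on the horizontal axis. Points are libraries and lines are group means (n = 2). The 4-OHT points are above the ethanol points for each denominator, with the widest gap for Pmepa1 (1.59 on the log2 scale) and the narrowest for Tdgf1 (0.50).

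To compare levels between genes, CPM was divided by the length of each gene's merged exons in kb. In ethanol Lefty1 was highest at 374 ± 37.1 CPM per kb (SD, n = 2), followed by Tdgf1 at 254 ± 5.18. Lefty2 (57.9 ± 1.06) and Nodal (57.7 ± 2.15) came next with overlapping libraries, then Acvr2b (30.6), Skil (24.3), Smad7 (15.7) and Pmepa1 (9.24). With 4-OHT Tdgf1 was highest at 312 ± 3.35 CPM per kb, and Lefty1 followed at 266 ± 17.8. Nodal, at 100.1 ± 3.35, then stood above Lefty2, at 53.5 ± 2.8, with libraries that did not overlap. The order from Acvr2b (33.5) through Skil (24.8) and Smad7 (17.4) to Pmepa1 (5.35) was as in ethanol. On this scale Tdgf1 and Lefty1 thus stood in opposite order in the groups, while Nodal and Lefty2 overlapped in ethanol and were apart with 4-OHT. In CPM, before division by length, Lefty1 (704 and 612) and Tdgf1 (657 and 676) overlapped in ethanol. Exons that are not used in ESCs count in these lengths, so levels of different genes are approximate.

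Genes with the most similar pattern over the 4 libraries were found by the Euclidean distance of log2(CPM + 1), centred for each gene, among 9435 genes with a mean of at least 10 CPM. Nearest to Nodal were Ppp1r1a (distance 0.038), a protein phosphatase inhibitor, at 37.0 and 39.0 CPM in ethanol and 66.2 and 66.9 CPM with 4-OHT, then the amino acid transporter Slc1a4 (0.039) and the phospholipase Pnpla7 (0.052). Nearest to Lefty1 were the spermine synthase gene Sms (0.016), at 62.5 and 53.4 CPM against 38.8 and 42.9 CPM, then Zhx1 (0.040) and the collagen gene Col27a1 (0.043). With 4 libraries this likeness describes little more than the difference between the groups and the gap within each.

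The wider pathway list held 51 genes, of which 45 were measured, the 8 among them. Inhba, Cfc1, Acvr1c, Cer1, Lhx1 and Foxa2 were not analysed here. Of the other 37 measured genes 2 rose (Gdf1 and Tgif1), 3 fell (Pcsk6, Tgfbr2 and Ski) and 32 did not pass the test, with a median log2 fold change of 0.02 and a median absolute size of 0.13, close to those of all genes. With the 8 included, 4 rose and 5 fell, beside 5.24% and 4.22% of all genes.

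Among 7 measured ligand genes, Nodal and Gdf1 rose. Gdf1, whose product pairs with Nodal in the embryo, was at 11.6 and 12.3 CPM in ethanol and at 16.8 and 19.6 CPM with 4-OHT (log2 fold change 0.56, adjusted p = 0.0348 by limma). All of its exon length (100.0%) lies within exons of Cers1 on the same strand, so its reads cannot be told from those of Cers1. The call was lost with DESeq2 (adjusted p = 0.226) and, by limma, without any 1 of the 4 libraries (log2 fold change 0.45 to 0.66). Gdf3, a related ligand of ESCs, averaged 168 CPM in the controls and 153 CPM in the treated libraries (adjusted p = 0.233) and was not called, nor were the activin subunit gene Inhbb (5.05 and 5.02 CPM) or Tgfb1, Tgfb2 and Tgfb3. Of the convertases that cut the Nodal precursor, Pcsk6 (PACE4) fell. It stood at 63.2 and 57.9 CPM in ethanol and at 38.0 and 39.1 CPM with 4-OHT (log2 fold change -0.64, SE 0.085, adjusted p = 0.00125 by limma). Without 4-OHT library A or B its limma call was lost (-0.62 and -0.66). Furin, the other convertase, was at 32.2 and 30.7 CPM on average and did not pass (adjusted p = 0.753).

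Of 5 measured receptor genes only the TGF-β type II receptor gene Tgfbr2 passed. It was low, at 3.88 and 3.90 CPM in ethanol and at 2.13 and 1.43 CPM with 4-OHT (log2 fold change -0.82, adjusted p = 0.0383 by limma). The call was lost with a pseudocount of 0.1 (adjusted p = 0.0712), with DESeq2 (0.435) and, by limma, without any 1 of the 4 libraries (log2 fold change -1.01 to -0.64). The activin receptor genes Acvr1b (40.7 and 43.9 CPM on average, adjusted p = 0.495) and Acvr2a (27.1 and 23.3 CPM, adjusted p = 0.288) did not pass. Of 6 measured secreted inhibitor genes, Lefty1 alone passed. Follistatin (Fst), which binds activins, stood at 43.2 and 45.6 CPM on average (adjusted p = 0.670).

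None of the 7 measured genes for SMADs and their DNA-binding partners passed by limma, edgeR or DESeq2. Smad2 averaged 81.2 CPM in the controls and 80.8 CPM in the treated libraries, Smad3 46.3 and 40.7 CPM, and Smad4 132 and 137 CPM. The lowest adjusted p of the 7 was that of Foxh1, the forkhead partner of SMAD2, at 120.3 and 115 CPM in ethanol and 102 and 104 CPM with 4-OHT (log2 fold change -0.18, adjusted p = 0.104 by limma). Among 11 measured intracellular inhibitor genes 1 rose, 2 fell and 8 did not pass. Tgif1, a homeodomain repressor that binds SMADs, rose from 147 and 139 CPM to 188 CPM in each treated library (log2 fold change 0.40, SE 0.060, adjusted p = 0.00252 by limma). Ski, the relative of Skil, fell from 282 and 277 CPM to 240 and 228 CPM (log2 fold change -0.26, SE 0.056, adjusted p = 0.0163 by limma). The limma call was lost without 4-OHT library A or B for Tgif1 (0.40 and 0.39), and without any 1 library for Ski (-0.29 to -0.22). Of 4 further target genes measured, 0 passed by limma. By edgeR on the recovered reads, 6 genes of the pathway list were higher. Ldlrad4 was among them (4.34 and 4.37 CPM against 7.53 and 6.36 CPM, adjusted p = 0.0445 by edgeR), and not all of them are reported here. Ldlrad4 did not pass by limma (adjusted p = 0.089) or by DESeq2 (adjusted p = 0.582). Of the exon length of Ldlrad4, 52.1% overlaps Fam210a on the other strand.

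**Figure D4:**
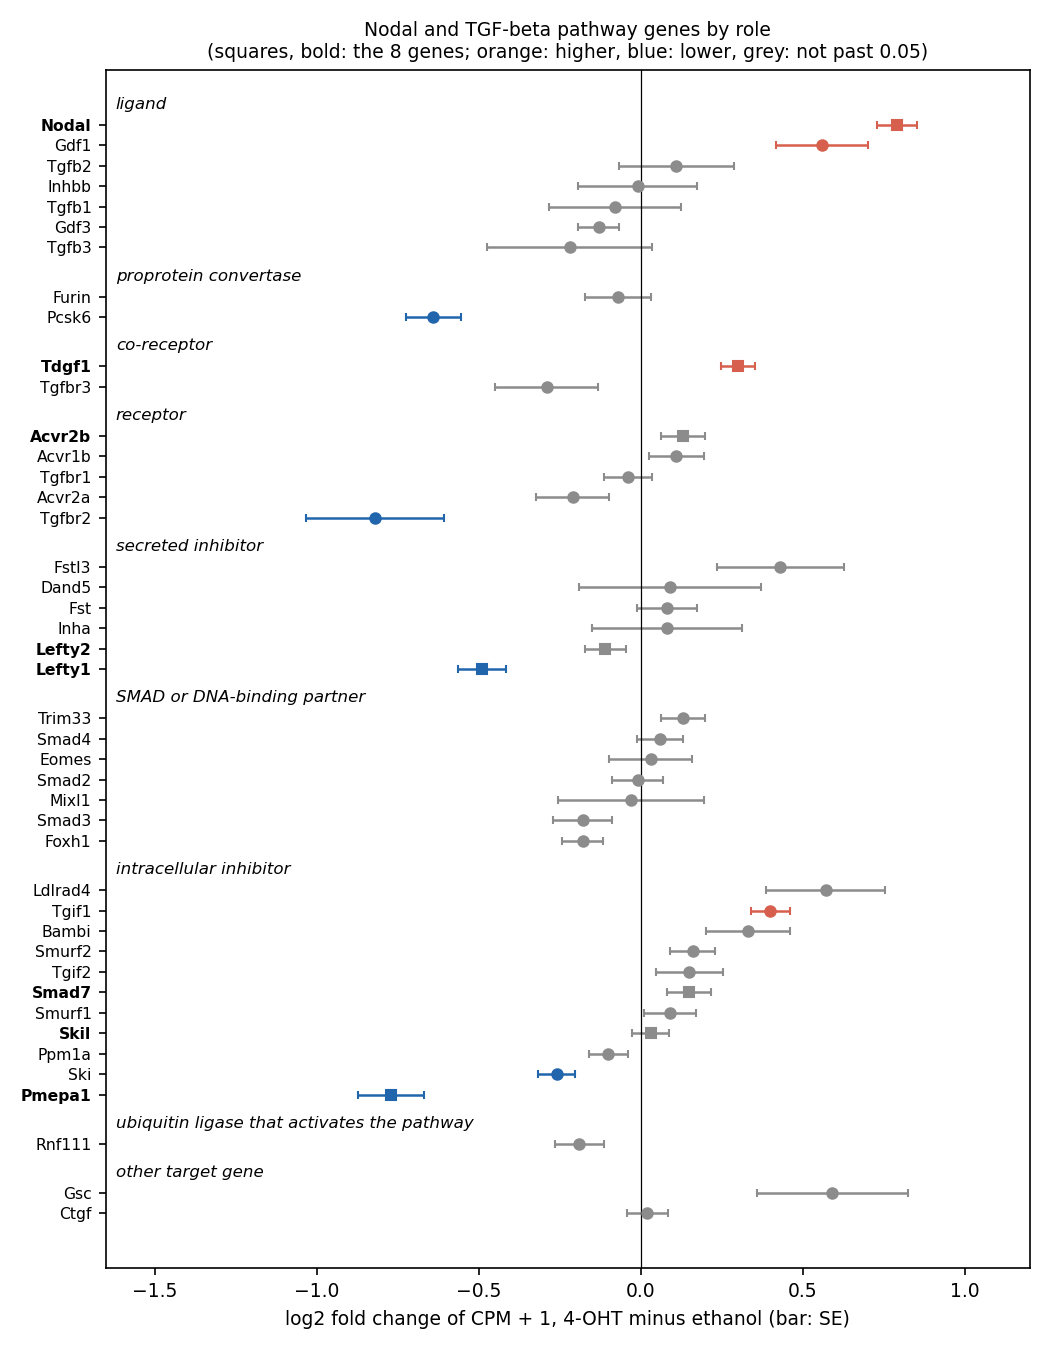
Change in log2(CPM + 1), as 4-OHT minus ethanol (horizontal axis), of 43 of the 45 measured pathway genes, grouped by role and ordered within a role by fold change. Squares are the 8 genes, circles the others, bars the SE, and colour marks the genes past a limma adjusted p of 0.05. Genes on either side of 0 are present in most roles, and the 7 SMAD and partner genes lie between -0.18 and 0.13.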

How the data were processed

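The submitters' processing notes name mm10 and the tools FastQC, Trimmomatic, HISAT2 and edgeR. The read counter, gene annotation and strand setting were not given in the sources used here. Per the labels' protocols libraries came from a TruSeq RNA v2 or a TruSeq Stranded mRNA kit. Which library had which is not given, so kit and treatment cannot be told apart. Per the file headers, the authors deposited each group's mean CPM, an adjusted p-value and a log2 fold change per gene. The deposited p-value and log2 fold change columns were not used, being out of register with the gene rows (across genes, Spearman rho of 0.016 between the deposited fold change and the one the mean CPM gives).

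A mean CPM over 2 libraries takes only values that whole reads in each library can give, and with the value of 1 read found for each library 100% of the values in each deposited CPM column came out as whole reads to a relative distance of 6e-10. Of 14382 genes, 99.67% (ethanol) and 99.95% (4-OHT) had a single solution. A further 42 and 7 had a single one with libraries at most 2-fold apart, and 6 genes were left out.

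Limma-trend (limma 3.58.1, R 4.3.3) was run on log2(CPM + 1) of all 4 libraries, two-sided, with Benjamini-Hochberg adjustment over 14376 genes and a threshold of 0.05, without filtering low values. Read counts were also tested with edgeR 4.0.16 (quasi-likelihood) and DESeq2 1.42.0. Alternatives were a pseudocount of 0.1, a minimum mean of 2 CPM, DESeq2 size factors, total reads, and leaving out genes with several read pairs or each library (with edgeR, added after seeing the data). The text names the 8 genes, Arid1a, the pathway genes past the threshold and the 3 genes nearest to Nodal and to Lefty1. Other pathway genes were named after their values were seen, to describe each role. Members and lists were chosen with earlier results of these data known. Some pathway genes and a sequence are not reported here. Coordinates are 1-based, from Gencode M21 and RefSeq.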

Additional observations from a re-analysis of the deposited data

How the results depend on the processing

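No paired analysis was possible because the columns hold group means and carry no replicate numbers. The 7 settings that kept all 4 libraries left each of the 8 genes on its side of the threshold and in its direction. Leaving out 1 library, with limma or edgeR, gave log2 fold changes of 0.75 to 0.83 for Nodal, 0.28 to 0.32 for Tdgf1, -0.59 to -0.39 for Lefty1 and -0.87 to -0.69 for Pmepa1. The lone library of a group is then assumed to vary like the other group. edgeR kept all 4 calls each time (highest adjusted p = 0.0352, for Tdgf1). Limma without 4-OHT library A or B called 0 genes (lowest adjusted p = 0.129 and 0.121, with 2505 and 2514 genes at an unadjusted p under 0.05), where edgeR called 1588 and 1782. The cause was not tested. The count of genes called higher (754) was 382 with DESeq2 and 0 to 953 when 1 library was left out. The count called lower (606) was 964 with a minimum mean of 2 CPM, 989 with edgeR, 318 with DESeq2 and 0 to 829 when 1 library was left out. With 1 library left out, the pathway list had 0 to 5 genes called higher and 0 to 5 lower, and the 8 genes had 0 to 2 higher and 0 to 2 lower. A depth of 6050742 to 6849890 recovered reads limits low genes such as Tgfbr2 more than the 8, whose lowest read number is 174.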
